A study of Mus musculus with 2 samples.

Results

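Sensors of nucleic acids in the cytosol and endosome were examined in mouse CT26 cells with and without decitabine (DAC). The 10 genes were listed by name: Ddx58, Ifih1, Dhx58, Mavs, Tlr3, Zbp1, Adar, Eif2ak2, Cgas and Tmem173. All 10 are among the 24223 Ensembl genes in the count tables, under these symbols in GENCODE M21. CT26 is a colon carcinoma line of BALB/c origin, and DAC is a cytosine analog that blocks DNA methyltransferases. Cells received 1 μM DAC in 3 doses at intervals of 24 h, followed by 24 h in drug-free medium, and control cells, which had no DAC, were harvested alongside. RNA-seq was done on 1 library per condition, so no difference below has a replicate check and no test was possible.

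Foreign nucleic acids in the cytosol are recognized by dedicated receptors that lead to interferon production. The RIG-I-like receptors bind double-stranded RNA and pass the signal to the mitochondrial adaptor MAVS. TLR3 binds double-stranded RNA in endosomes, while the enzyme cGAS binds DNA and makes a cyclic dinucleotide that activates STING, the product of Tmem173. ZBP1 recognizes nucleic acids in the Z form and can start necroptosis. ADAR edits double-stranded RNA, which keeps cellular RNA from being sensed, and the kinase PKR, the product of Eif2ak2, halts translation when it binds such RNA. Many of these genes are themselves induced by interferon. Because hypomethylating drugs are known to release transcripts of endogenous retroviruses that can form double-stranded RNA, the sensors are of interest in tumor cells treated with DAC. The gene counts hold no measure of such transcripts.

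The libraries held 34221886 counts in control and 35163420 in DAC. Levels are given as counts per 1e6 (CPM) after scaling by edgeR's TMM factors, where 1 CPM equals 32 counts in control and 37.6 in DAC. Genes with 1 CPM or more in at least 1 library were tested, and a difference was called when the CPM ratio (DAC over control) was 2 or more, or 0.5 or less, with a 95% Clopper-Pearson (exact) interval that excluded 1. Such intervals stand in parentheses after a ratio. They hold counting error alone, without differences between cultures, and assume that counts are independent molecules. Of 13545 genes tested, 1468 (10.8%) were higher and 716 (5.29%) lower in DAC. With library totals in place of TMM factors, which raise every log2 ratio by 0.19, 1889 were higher and 458 lower. The labelled cell type was checked with marker genes. Of 11 colon epithelial markers, 9 were in the count tables, and their summed level was 75.9 CPM in control and 258 CPM in DAC. Most of the control sum was Krt18 (56.1 CPM, and 95.2 in DAC) and Krt20 (18.5 CPM, and 41.2 in DAC). Krt8 rose from 5 to 4445 counts (0.156 to 118 CPM) and Muc2 had 21 and 6 counts. Cdh1, Vil1 and Lgr5 were at 0 in control, and Epcam and Cdx1 were not listed. Of 12 leukocyte markers, 4 were listed, with a summed level of 1.75 CPM in control and 3.43 CPM in DAC. Ptprc, the common leukocyte antigen, had 3 and 0 counts, Flt3 had 3 and 0, and Lyz2 had 31 and 17. Most of the leukocyte sum in DAC was Cd79a, with 19 and 112 counts, the only one of the 4 with more counts in DAC. Fibroblast and endothelial markers, all 11 listed, summed to 1819 and 1159 CPM, mostly Col1a2. Of the 6 that were tested, 0 were called higher or lower. Their log2 ratios lay above 0 for 4 and below 0 for 2, with a median of 0.27. The part of these markers in the values below was not tested.

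Promoter sequences of the sensor genes were taken from RefSeq (GRCm38.p6), in which 7 of the 10 genes were matched: Ddx58, Ifih1, Mavs, Tlr3, Adar, Eif2ak2 and Cgas, but not Zbp1, Dhx58 and Tmem173. Since DAC acts on cytosine methylation at CpG, the 250 bases before the start of 3 sensor genes are shown with each CpG in capitals. They are Ddx58, the most counted of the RNA receptors named after RIG-I, Tlr3, whose ratio lay closest below 2, and Cgas, the single sensor with less RNA in DAC. The promoter of Ripk3, the partner kinase of ZBP1, is added because its RNA was counted in the DAC library alone. All are written 5′ to 3′ on the strand of the gene, and all 4 genes lie on the minus strand.
Ddx58 at chr4:40239826-40240075: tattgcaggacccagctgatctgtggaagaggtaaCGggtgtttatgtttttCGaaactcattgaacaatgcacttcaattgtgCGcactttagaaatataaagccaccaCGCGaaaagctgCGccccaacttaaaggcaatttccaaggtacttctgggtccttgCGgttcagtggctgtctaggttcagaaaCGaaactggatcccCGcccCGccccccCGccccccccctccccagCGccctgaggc
Tlr3 at chr8:45410381-45410630: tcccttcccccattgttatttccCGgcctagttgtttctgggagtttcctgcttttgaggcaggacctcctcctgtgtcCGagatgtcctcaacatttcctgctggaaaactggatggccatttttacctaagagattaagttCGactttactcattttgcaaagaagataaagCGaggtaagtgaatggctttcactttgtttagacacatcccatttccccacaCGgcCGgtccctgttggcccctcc
Cgas at chr9:78443238-78443487: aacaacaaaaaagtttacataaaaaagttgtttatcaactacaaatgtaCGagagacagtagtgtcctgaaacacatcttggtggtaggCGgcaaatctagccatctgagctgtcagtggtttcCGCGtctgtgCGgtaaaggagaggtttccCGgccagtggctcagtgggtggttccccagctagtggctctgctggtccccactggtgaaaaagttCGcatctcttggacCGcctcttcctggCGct
Ripk3 at chr14:55788858-55789107: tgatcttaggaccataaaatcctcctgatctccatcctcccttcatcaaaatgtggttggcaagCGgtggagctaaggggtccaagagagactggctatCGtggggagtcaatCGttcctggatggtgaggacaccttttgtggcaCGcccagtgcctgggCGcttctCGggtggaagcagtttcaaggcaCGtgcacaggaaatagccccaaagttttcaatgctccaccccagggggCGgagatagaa
These stretches hold 12 CpG in Ddx58, 6 in Tlr3, 9 in Cgas and 8 in Ripk3. Over the 32851 promoters of the table the median was 6 and the quartiles were 2 and 16, so the 4 genes lie between the quartiles. Ifih1, Mavs and Eif2ak2 had 11, 15 and 12 CpG, and the 3 annotated starts of Adar had 5, 24 and 10. The annotated start used for Tlr3 lies inside the longer gene of GENCODE M21. Methylation of these CpG was not analysed here.

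Windows from 250 bases before to 50 bases after each start were searched on both strands for the core of the interferon-stimulated response element, which is GAAA, any 2 bases and GAAA, for the same repeats with a spacer of 1 base, GAAANGAAA, and for the core of the gamma-activated site, TTCNNNGAA. A response element core was present in 3.44% of all promoters, the shorter spacing in 3.17% and the gamma-activated core in 8.3%. The stretches of 30 bases that hold the matches to the first and second motif are shown because they sit at or near the starts of sensor genes, with the match in capitals.
Ddx58, response element core on the opposite strand, chr4:40239804-40239833: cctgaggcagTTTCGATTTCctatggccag
Ddx58, GAAANGAAA, chr4:40239866-40239895: tctaggttcaGAAACGAAActggatccccg
Ifih1, response element core, chr2:62646206-62646235: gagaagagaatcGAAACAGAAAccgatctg
Eif2ak2, response element core, chr17:78882535-78882564: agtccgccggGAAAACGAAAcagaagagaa
Adar, start 3, GAAANGAAA, chr3:89730736-89730765: ccttttcaagGAAACGAAAgtgaactctgg
Counted from the first transcribed base as position 1, the response element core began at position 3 in Ddx58, 33 in Ifih1 and 19 in Eif2ak2. The gamma-activated core was found in Eif2ak2, from position -178, and at start 3 of Adar, where it overlaps the match shown. The windows of Mavs, Tlr3, Cgas and Ripk3 held none of the 3 motifs in these letters. The 3 sensor genes with the response element core had ratios of 1.55, 1.32 and 1.04, in that order, and none was called. The only sensors that were called, Zbp1, Dhx58 and Tmem173, had no promoter to search. The searched sensors without this core were not called either, so these matches cannot be set against the calls.

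**Figure D1:**
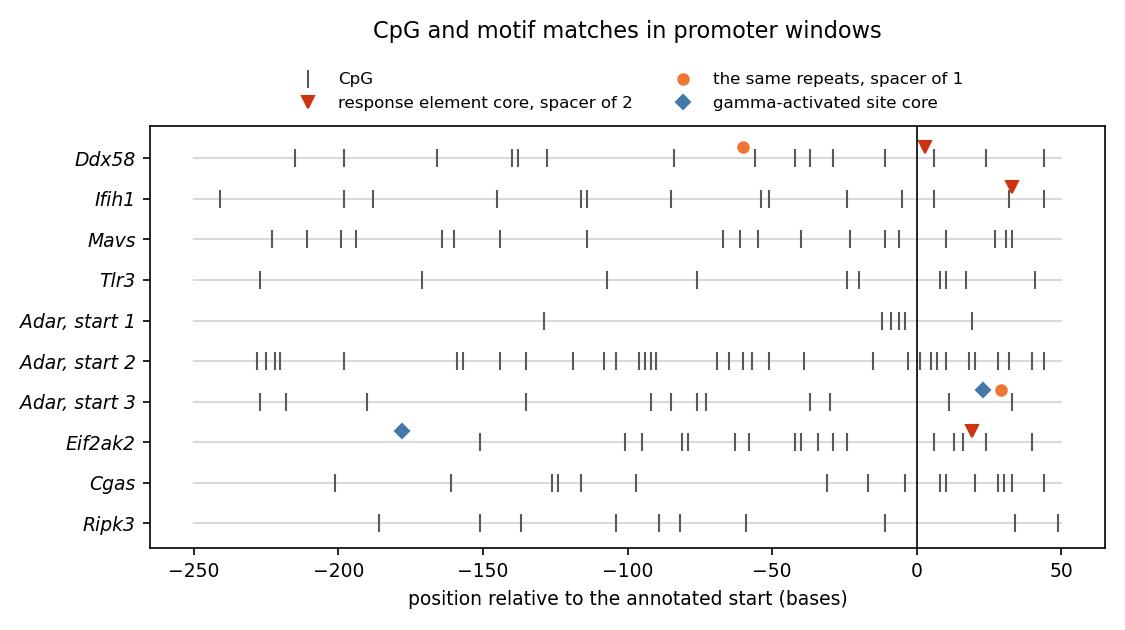
Positions of CpG (ticks) and of matches to the 3 motifs (symbols, placed at the first base of the match) in promoter windows of 7 sensor genes and Ripk3, from 250 bases before to 50 bases after the annotated start (x axis, bases). Ddx58, Ifih1 and Eif2ak2 carry a response element core just after the start, and Adar has 3 annotated starts with 5 to 24 CpG upstream.

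The sensors differed widely in how far they stood from the control. Zbp1 was 10.6-fold higher in DAC, Dhx58 2.76-fold and Tmem173 2.1-fold, and the other 7 genes did not pass the rule. In a culture of tumor cells, more RNA per cell and a larger share of cells with the RNA cannot be told apart. Of the 10 genes, 3 (Zbp1, Dhx58 and Tmem173) were called higher, against 10.8% of all genes tested, and 0 were called lower, against 5.29%. All 10 reached 5 CPM in both libraries, and among genes with at least 5 CPM in either library 6.34% were higher and 4.17% lower. The median log2 ratio of the sensors was 0.52, compared with -0.018 over all genes tested, and 9 of 10 sensors lay above 0, compared with 48.7% of all genes tested. The sensor genes were chosen with earlier results of these data known, so these comparisons with all genes are description only. Without Zbp1, a choice made after seeing the data, the median was 0.40. The counting interval lay wholly above 1 for 9 sensors and wholly below 1 for 1, but so it did for 37.3% and 40.3% of all genes tested, so most genes differed by more than counting error.

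The calls were compared under other settings, each with its own background. By library totals 4 sensors were higher, Tlr3 in addition, against 13.9% of all genes tested, and 0 were lower, against 3.37%. After centring on GC content the same 4 were higher, against 10.3%, and 0 lower, against 4.42%. With DESeq2 size factors 3 sensors were higher (background 11.1%) and 0 lower (5.01%), with upper-quartile factors 3 (11%) and 0 (5.15%), and with no CPM minimum 3 (11%) and 0 (5.11%). With intervals from counts divided by 3, a stricter allowance for counting error, 3 were higher (10.2%) and 0 lower (4.84%). Zbp1 was the only sensor past a 4-fold limit, which 4.27% of all genes passed upward and 0.827% downward.

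**Figure D2:**
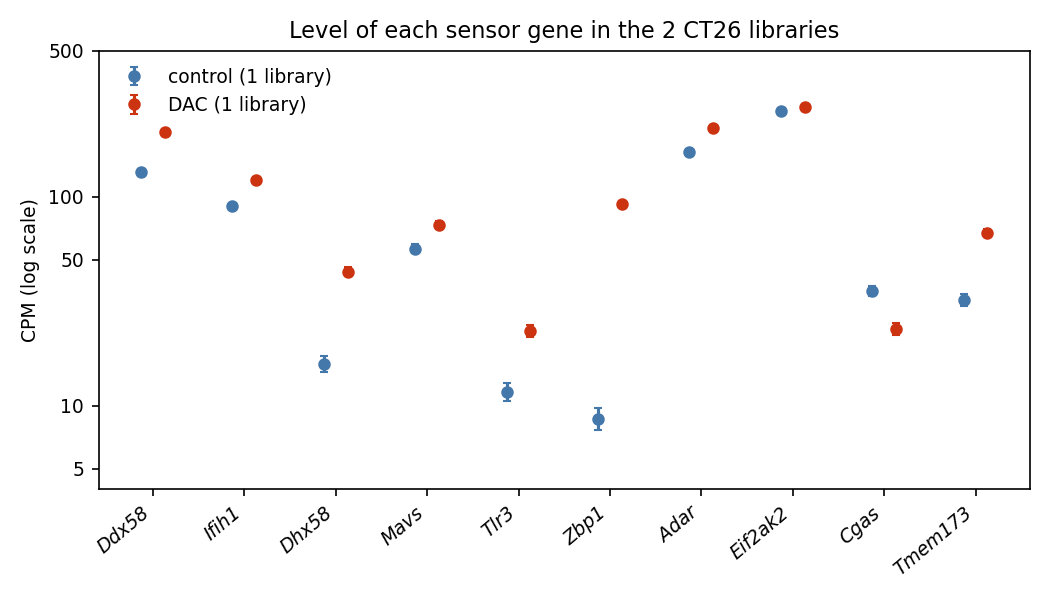
CPM (y axis, log scale) of the 10 sensor genes in the control library (blue) and the DAC library (red), with exact 95% Poisson intervals for counting error as bars. Zbp1 moves from 8.65 to 91.9 CPM, and Cgas is the single gene with its red point below the blue one.

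Zbp1 had the lowest CPM of the 10 genes in control cells. It had 277 counts in control and 3455 in DAC, which is 8.65 CPM (7.66 to 9.73) and 91.9 CPM (88.9 to 95.1). The ratio was 10.6 (9.4 to 12.1), and 275 of the 13545 genes tested had a higher ratio. Its CPM rise of 83.3 was the largest of the 10 sensors, ahead of Ddx58 at 72.9. Zbp1 (ENSMUSG00000027514) lies on chromosome 2 of GRCm38 from 173206612 to 173218923. None of the 50-base stretches of its longest transcript occurs in transcripts of other genes, and no other annotated gene overlaps its exons.

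Adar, the other member whose protein can bind Z-form nucleic acids, had 5236 counts in control and 7981 in DAC. At 164 and 212 CPM it was among the most counted sensors in both libraries, and its ratio was 1.3 (1.25 to 1.35). Adar makes a long isoform from an interferon-inducible promoter and a short constitutive isoform, which a count per gene cannot separate. The exons of Adar overlap those of Chrnb2 on the opposite strand over 16.8% of their length. Chrnb2 itself had 83 and 212 counts. Reads of overlapping genes on opposite strands cannot be told apart without strand, and the sources used here do not give whether counting used strand. Adar (ENSMUSG00000027951) lies on chromosome 3 from 89715022 to 89753446. Per kilobase of annotated exon, Adar stood at 20.1 CPM in control against 2.45 for Zbp1, whereas in DAC both were at about the same level, 26.2 and 26.1 CPM per kilobase, with overlapping counting intervals.

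The 3 RIG-I-like receptors were not equally far from control. Dhx58 encodes LGP2, a helicase that binds RNA but lacks the signaling domains of its relatives and tunes their response. It had 509 counts in control and 1646 in DAC, or 15.9 and 43.8 CPM, a ratio of 2.76 (2.49 to 3.05). Ddx58 encodes RIG-I, which detects RNA ends with a triphosphate, and had 4214 and 7683 counts, or 132 and 204 CPM, a ratio of 1.55 (1.5 to 1.61). Ifih1 encodes MDA5, which assembles along long double-stranded RNA, and had 2898 and 4501 counts, or 90.5 and 120 CPM, a ratio of 1.32 (1.26 to 1.39). Their counting intervals do not overlap each other, so the order Dhx58, Ddx58, Ifih1 is larger than counting error, though not tested between cultures. After centring on GC content, the log2 ratios of Ddx58 and Ifih1 came closer, at 0.77 and 0.68. Dhx58 (ENSMUSG00000017830) lies on chromosome 11 from 100694884 to 100704271, Ddx58 (ENSMUSG00000040296) on chromosome 4 from 40203773 to 40239828, and Ifih1 (ENSMUSG00000026896) on chromosome 2 from 62595798 to 62646255. An antisense gene, Dhx58os, overlaps 4.31% of the exon bases of Dhx58 and had 7 and 31 counts, while no other gene overlaps the exons of Ddx58 or Ifih1.

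Mavs, the adaptor that RIG-I and MDA5 share, had 1811 counts in control and 2765 in DAC. Its level was 56.6 and 73.6 CPM, a ratio of 1.3 (1.23 to 1.38). Tlr3, the endosomal receptor, had 373 and 860 counts, or 11.6 and 22.9 CPM. Its ratio of 1.96 (1.74 to 2.22) fell just short of 2, while that of Tmem173 at 2.1 (1.95 to 2.26) lay just past it, and both intervals hold 2. The rule therefore separates these genes by less than their counting error. By library totals and after GC centring Tlr3 was called higher as well, with log2 ratios of 1.17 and 1.26 in place of 0.97. Mavs (ENSMUSG00000037523) lies on chromosome 2 from 131234063 to 131248025, and Tlr3 (ENSMUSG00000031639) on chromosome 8 from 45395665 to 45411080. Gm45542, on the opposite strand, overlaps 7.32% of the exon bases of Tlr3 and had 4 and 0 counts.

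Eif2ak2 was the most abundant sensor and nearly level between the libraries. It had 8287 counts in control and 10080 in DAC, or 259 and 268 CPM. The ratio was 1.04 (1.01 to 1.07), the closest to 1 of the 10 genes. Eif2ak2 carries the response element core shown above. By library totals its log2 ratio was 0.24 in place of 0.052. The gene (ENSMUSG00000024079) lies on chromosome 17 from 78852564 to 78882573, where Gm26637, on the opposite strand, overlaps 3.4% of its exon bases and had 9 and 31 counts.

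The DNA sensing pair lay on opposite sides of a ratio of 1, and Tmem173 alone passed the rule. Cgas had 1135 counts in control and 876 in DAC, or 35.4 and 23.3 CPM, a ratio of 0.658 (0.602 to 0.719), which is 1.52-fold lower and short of the 2-fold rule. Tmem173, which encodes the adaptor STING, had 1027 and 2528 counts, or 32.1 and 67.3 CPM, and its ratio of 2.1 is exceeded by 1356 genes tested. For Cgas, 11567 of the genes tested had a higher ratio. Per kilobase of exon, Tmem173 stood at 11.7 CPM and Cgas at 8.59 CPM in control, and at 24.5 and 5.65 CPM in DAC. The direction for Cgas was the same under library totals, DESeq2 size factors, upper-quartile factors, a prior count of 2 and GC centring, with log2 ratios of -0.60 to -0.41. Tmem173 (ENSMUSG00000024349) is annotated on chromosome 18 from 35733679 to 35740554 and Cgas (ENSMUSG00000032344) on chromosome 9 from 78430526 to 78443237. Gm8093, on the opposite strand, overlaps 4.87% of the exon bases of Cgas and is not listed in the count tables.

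**Figure D3:**
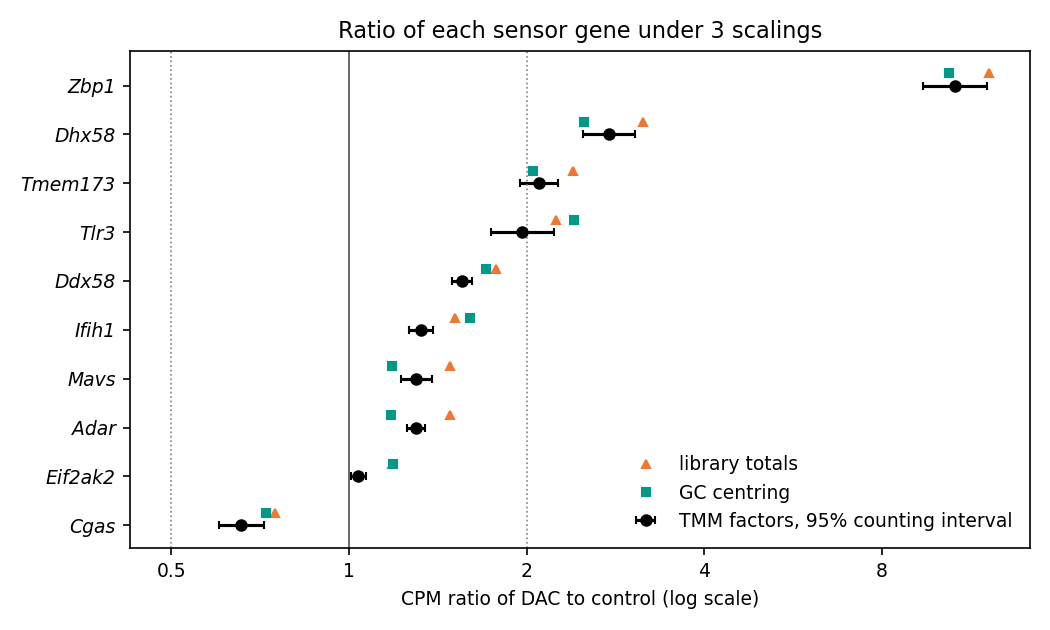
Ratios (DAC over control, x axis, log scale) of the 10 sensor genes, with 95% counting intervals for TMM scaling (black), the values by library totals (orange) and after GC centring (green), a solid line at 1 and dotted lines at 0.5 and 2. Zbp1 stands apart at 10.6, Tmem173 and Tlr3 sit on either side of 2, and Cgas is the single gene below 1.

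The order of the sensors by CPM per kilobase of exon changed mainly through Zbp1. In control, Eif2ak2 (50.6) was followed by Adar (20.1), Ddx58 (18.7) and Mavs (16.9), and Zbp1 (2.45) and Tlr3 (2.24) were last, in positions 9 and 10. In DAC, Eif2ak2 (52.5) was again first, followed by Ddx58 (29), Adar (26.2) and Zbp1 (26.1), which had moved to position 4, and Cgas (5.65) and Tlr3 (4.4) were last. Counting intervals overlapped between Zbp1 and Tlr3 and between Tmem173 and Ifih1 in control, and among Adar, Zbp1 and Tmem173 in DAC for neighbors in that order.

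**Figure D4:**
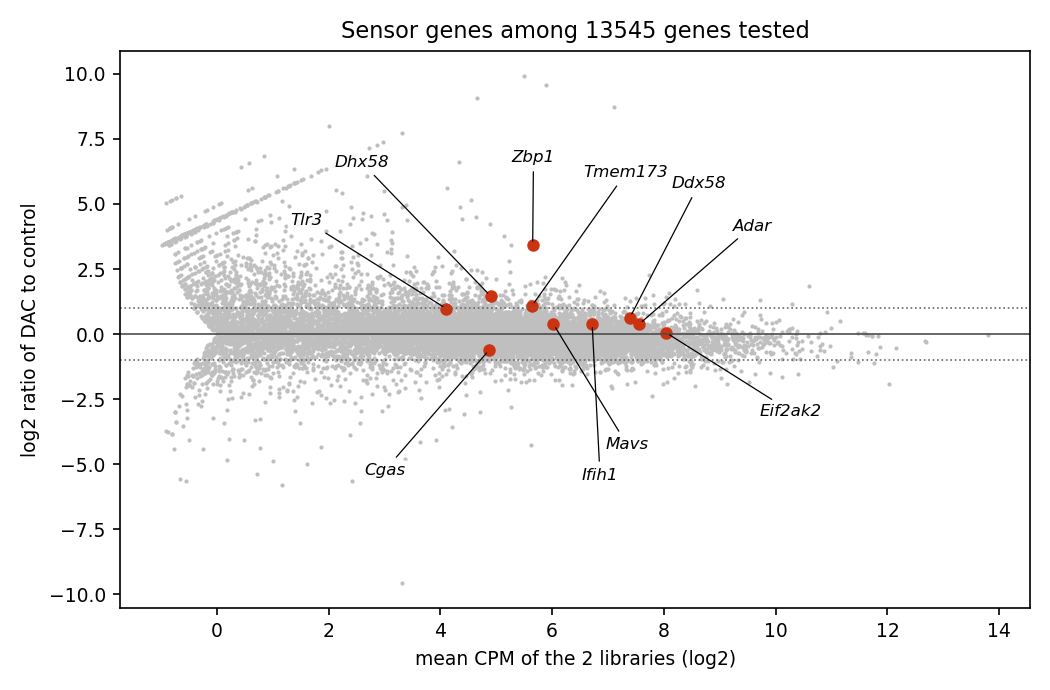
Log2 ratio (DAC over control, y axis) against the mean CPM of the libraries on a log2 scale (x axis) for 13545 genes tested (gray) and the 10 sensor genes (red, named). Dotted lines mark 2-fold differences and a count of 0 is drawn as 3. Zbp1, at 3.41, is the sensor farthest from 0, and Cgas, at -0.60, is the single one below it.

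Genes that act with the sensors were counted in lists chosen by function, with earlier results of these data known. The lists together hold 140 genes tested, of which 17 were higher (12.1%, against 10.8% of all genes tested) and 5 lower (3.57%, against 5.29%), and their median log2 ratio was 0.099, compared with -0.018 over all genes tested.

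Among 7 genes of the ZBP1 death pathway, 1 was higher (14.3%, against 10.8% of all genes tested) and 0 were lower (against 5.29%). Their median log2 ratio was 0.30. Ripk3, the kinase through which ZBP1 starts necroptosis, had 0 counts in control and 121 in DAC (3.22 CPM). Set against a floor of 3 counts in the control library it was 34.4-fold higher, and with counting error in both libraries the ratio was 27.5 or more. Mlkl, the executioner that RIPK3 phosphorylates, was counted 3252 times in control and 3455 times in DAC, a ratio of 0.905 (0.863 to 0.95). For Ripk1, a kinase that can also engage RIPK3, the counts were 1494 and 1835 and the ratio 1.05 (0.977 to 1.12). Casp8, which restrains necroptosis, had a ratio of 1.53 (1.4 to 1.68), and Cflar, its inhibitory partner and the most abundant of the list, 0.611 (0.593 to 0.63). The DAC library thus held counts of Zbp1, Ripk3 and Mlkl together, while Ripk3 was not detected in control, where the exact 95% interval of 0 counts reaches 0.115 CPM and the floor of 3 counts equals 0.0937 CPM. At a minimum of 5 CPM Ripk3 is not tested.

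The list of the OAS pathway, whose enzymes make oligoadenylates after binding double-stranded RNA, had the highest median of the lists with more than 5 genes tested, at 1.06 on the log2 scale. Of its 13 genes, 10 were tested. Of these, 6 were higher (60%, against 10.8% of all genes tested) and 0 lower (against 5.29%). Oas1a had 3789 counts in control and 12451 in DAC, a ratio of 2.8 (2.7 to 2.9), and Oas1g 2786 and 8638 counts, a ratio of 2.64 (2.53 to 2.76). Oas1a shares 57.6% and Oas1g 54.7% of 50-base stretches with other genes, mainly with each other, so their counts cannot be assigned with certainty. Oas2 at 2.14 (2.06 to 2.22) and Oasl2 at 2.13 (2.07 to 2.19), the most abundant of the list, share none. Oas1h was 2.31-fold (1.48 to 3.71) and Oas1c 2.03-fold (1.54 to 2.7) higher, with at most 75 counts in control, and Oas1c no longer passes after GC centring. Neither is tested at a minimum of 5 CPM. Oas3 had a ratio of 1.68 and Oasl1 of 1.25.

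Of 25 genes that carry the signal to IRF3 and NF-κB, 4 were higher (16%, against 10.8% of all genes tested) and 1 was lower (4%, against 5.29%), with a median log2 ratio of 0.26. Irf7, the factor that amplifies interferon production, had 1930 counts in control and 6856 in DAC, a ratio of 3.03 (2.88 to 3.19). Irf1 was 2.53-fold (2.31 to 2.76), Irf5 3.36-fold (2.33 to 4.96) and Nfkbia, the inhibitor of NF-κB, 3.39-fold (3.02 to 3.81) higher. Tnfaip3, which encodes the brake A20, was 2.58-fold lower, with 3345 and 1522 counts. Irf5 is not tested at a minimum of 5 CPM. Chuk, an NF-κB kinase gene and the most abundant of the list in control, had a ratio of 0.72. The interferon genes themselves were barely counted. Of 20 type I and type III interferon genes 6 were listed, none reached 1 CPM, and their sum was 10 counts in control and 25 in DAC. Ifnb1 had 5 and 17 counts, a ratio of 2.9 (1.03 to 10), Ifnab 0 and 6, Ifna4 0 and 1, Ifna13 3 and 0, Ifne 1 and 0, and Ifnz 1 and 1. Among 8 genes for interferon receptors and their factors, 1 was higher (12.5%, against 10.8%) and 0 lower (against 5.29%). The higher gene was Stat2 at 2.06 (1.98 to 2.15). Stat2 no longer passes after GC centring.

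Of 17 regulators of the RIG-I-like receptors, 3 were higher (17.6%, against 10.8% of all genes tested) and 2 lower (11.8%, against 5.29%). Their median log2 ratio was -0.086. Rnf135, which encodes the ubiquitin ligase Riplet that activates RIG-I, was 2.07-fold higher (1.69 to 2.54), Trim65, a ligase for MDA5, 4.16-fold (2.71 to 6.62) and Tkfc, which restrains MDA5, 2.13-fold (1.82 to 2.51). Riok3, a kinase gene, was 2.1-fold lower and Trim40, a further ligase gene, 2.79-fold lower, and Pcbp2, whose product promotes the breakdown of MAVS and which was the most abundant, had a ratio of 0.942. After GC centring Rnf135, Tkfc and Riok3 no longer pass, nor does Riok3 by library totals. Trim65 and Trim40 are not tested at a minimum of 5 CPM. Among 22 regulators of cGAS and STING and enzymes that clear nucleic acids, 2 were higher (9.09%, against 10.8%) and 0 lower (against 5.29%). The median of this list was 0.23. Rnf26, which encodes a ligase that acts on STING, was 5.57-fold higher (4.86 to 6.39), but it shares 72.2% of 50-base stretches with other genes, mostly Gm49380. Trex1, the main cytosolic DNA exonuclease, was 2.57-fold higher (1.93 to 3.47), but it shares 95.6%, mostly with Atrip. Trim56, the most abundant of the list in control, had a ratio of 0.945.

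Around Eif2ak2, 0 of 13 genes of the eIF2α kinases and the integrated stress response were higher and 1 was lower (7.69%). Over all genes tested, 10.8% were higher and 5.29% lower. The median log2 ratio of this list was -0.23, with 8 genes below 0 and 5 above. Ppp1r15a, which encodes the phosphatase subunit GADD34 that reverses the action of PKR, had 28194 counts in control and 8731 in DAC and was 3.79-fold lower. Atf4, the most abundant of the list, had a ratio of 0.853. Of 14 other genes for RNA editing and binding of double-stranded RNA, 0 were higher and 0 lower, and Dhx9, the most abundant, had a ratio of 0.969. Their median log2 ratio was -0.16, with 8 genes below 0 and 6 above. Of 23 other DNA and RNA sensing genes, 0 were higher and 1 was lower (4.35%), Lrrfip1 at 2.4-fold. Unlike that of the 10 sensors, the median log2 ratio of these genes was below 0, at -0.20, with 16 genes below 0 and 7 above. Hnrnpa2b1, the most abundant, had a ratio of 0.913. Among the other endosomal toll-like receptors, Tlr7, Tlr9 and Tlr13 had 0, 2 and 3 counts in control and 9, 3 and 0 in DAC, so of the 4 endosomal receptors for nucleic acids that were listed Tlr3 alone reached 1 CPM. Hsp90b1, a chaperone of these receptors and the most abundant of the list, had a ratio of 0.631.

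The genes listed as controls lay between ratios of 0.574 and 1.4. Gapdh had a ratio of 0.997, Rplp0 of 1.06, Sdha of 0.843, Tbp of 0.837, Hprt of 0.574 and Actb of 1.4. Ifih1, Mavs, Adar, Eif2ak2 and Cgas lie within that range, whereas Ddx58, Tlr3, Tmem173, Dhx58 and Zbp1 lie above it.

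**Figure D5:**
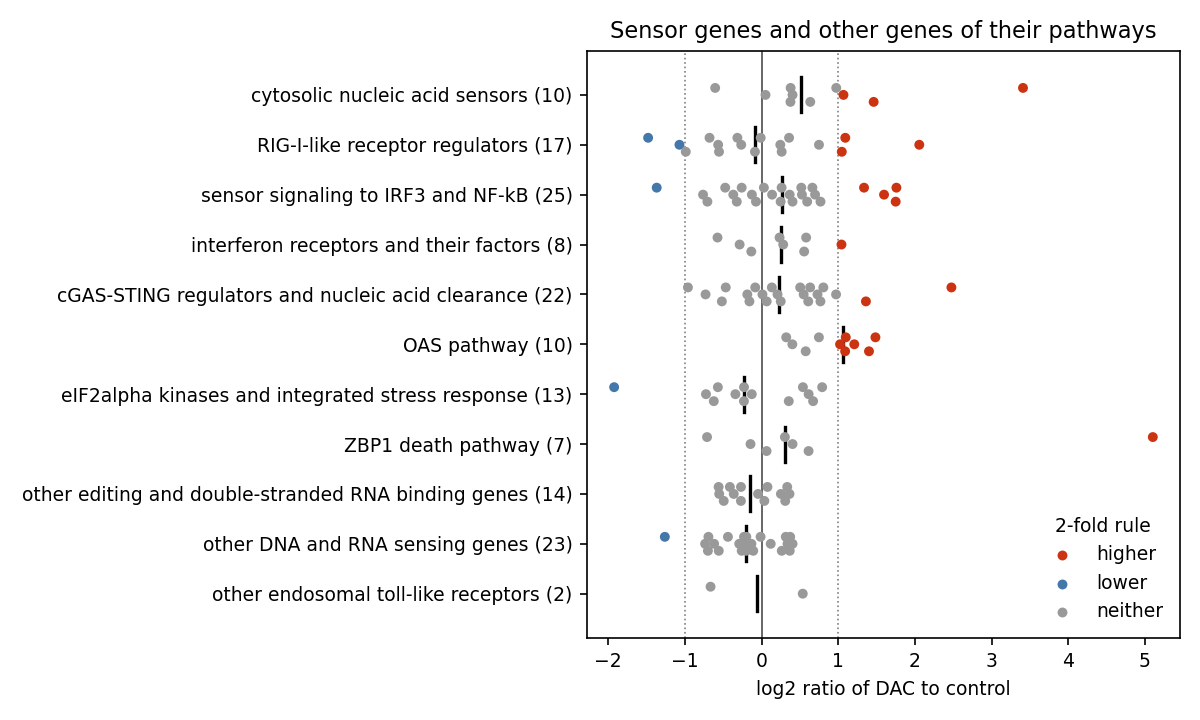
Log2 ratio (DAC over control, x axis) of each gene tested in the sensor group and in 10 pathway lists, with the number of genes tested in parentheses, calls by the 2-fold rule in color, medians as black bars and 2-fold differences as dotted lines. The OAS pathway has a median of 1.06 and the sensors 0.52, and the point at 5.1 is Ripk3, placed against 3 control counts.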

How the data were processed

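RNA of DAC-treated and control CT26 cells, 1 library each, was sequenced after poly-A selection and TruSeq preparation, per the paper's methods. The authors deposited whole-number counts per Ensembl gene, without normalization. Tools listed in the submitters' processing notes are STAR 2.5.3a and StringTie 1.3.1c, with Cufflinks, DESeq, FastQC and Trim Galore, on mm10. The paper's methods name FPKM values, CASAVA, TopHat and Bowtie, and the route to these counts and the use of strand are not given in the sources used here.

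Symbols, positions and exon lengths came from GENCODE mouse M21 on GRCm38, the assembly behind mm10, and 24122 of 24223 identifiers matched. TMM factors (0.936 for control, 1.07 for DAC) came from edgeR 4.0.16, and ratios and exact binomial intervals from Python 3.11.15 with scipy 1.17.1. A count of 0 was set against 3 counts (0.0937 CPM in control, 0.0798 CPM in DAC). The rule was tested on simulated libraries that held counting error alone, so differences between cultures were not covered. CPM per kilobase uses all annotated exon bases of a gene, and shared sequence was counted as 50-base stretches of the longest transcript found, on either strand, in transcripts of other genes. Genes named are all sensors, up to 6 called genes and the most abundant gene of each list, every interferon gene with a count, and all control genes, apart from what is not reported here. Tlr7, Tlr9, Tlr13, Unc93b1, Mlkl, Ripk1, Casp8, Oas3 and Oasl1 were named after their values were seen. The sensor genes and lists were chosen with earlier results of these data known. Alternatives were size factors from DESeq2 1.42.0, upper-quartile factors, library totals, other CPM minimums, a fold of 4, intervals from counts divided by 3, a prior count of 2 and centring within 20 bins of GC content. Bisulfite sequencing, xenografts and mouse experiments were not analysed here.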

Additional observations from a re-analysis of the deposited data

How the results depend on the processing

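With 1 library per group, no setting adds replicate error, and no paired analysis was possible because each group is 1 library and the labels number no replicates. The calls of Zbp1, Dhx58 and Tmem173 were made under library totals, DESeq2 size factors, upper-quartile factors, GC centring, both other CPM minimums and intervals from counts divided by 3. Under 4-fold, 1 sensor (Zbp1) was higher. Tlr3 was called under library totals and GC centring, with 4 sensors higher under each. By library totals, log2 ratios were 0.83 (Ddx58), 0.60 (Ifih1), 1.65 (Dhx58), 0.57 (Mavs), 1.17 (Tlr3), 3.60 (Zbp1), 0.57 (Adar), 0.24 (Eif2ak2), -0.41 (Cgas) and 1.26 (Tmem173), a shift common to all genes. After GC centring they were 0.77 (Ddx58), 0.68 (Ifih1), 0.24 (Mavs), 1.26 (Tlr3), 0.24 (Adar), 0.25 (Eif2ak2) and -0.47 (Cgas). Those 7 moved out of their counting intervals, and by library totals every sensor did. Centring takes from each gene the median log2 ratio of the genes in its bin of GC content. Why that median differed between bins was not tested. The median of the sensors was 0.40 to 0.73 over all settings. Over all genes, 2672 were higher and 1239 lower with no CPM minimum, 684 and 450 at 5 CPM, and 579 and 112 at 4-fold, from more or fewer genes tested or a stricter fold, and 458 were lower by library totals. In the pathway lists together, 3 of 140 genes tested were higher and 0 lower at 4-fold, against 4.27% and 0.827% of all genes tested.

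Single lists moved by over 1.5 times as follows. Of all genes tested, 4.27% were higher and 0.827% lower at 4-fold, and 6.34% and 4.17% at 5 CPM. The shares were 10.3% and 4.42% after GC centring, 13.9% and 3.37% by library totals, and 11% and 5.11% with no CPM minimum. At 4-fold, higher genes fell from 3 to 1 among regulators of RIG-I-like receptors, from 4 to 0 in signaling to IRF3 and NF-κB, from 1 to 0 among interferon receptors and their factors, from 2 to 1 among cGAS and STING regulators and from 6 to 0 in the OAS pathway, and no lower gene remained in any list. Lower regulators of RIG-I-like receptors were 1 in place of 2 by library totals and at 5 CPM. After GC centring, interferon receptors and their factors had 0 higher genes in place of 1, and cGAS and STING regulators 1 lower and eIF2α genes 1 higher in place of 0. At 5 CPM the ZBP1 pathway had 0 higher genes in place of 1. With no CPM minimum, 1 interferon gene, 1 gene of the editing list and 2 of the list of other endosomal receptors and their chaperones (Tlr7 and Unc93b1) were higher in place of 0. Below 1 CPM, which is 32 counts in control, depth limits what a ratio can show.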
